A study of Mus musculus with 3 samples.

Results

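Blood stays fluid in a capillary because the endothelial cells (ECs) that line it hold clotting down, and because any fibrin that forms is dissolved. Clotting starts when tissue factor meets factor VII, and thrombin is then made on membranes with the help of cofactors such as factor VIII. Thrombomodulin on the EC surface captures thrombin and turns it into an activator of protein C, which cuts the cofactors, and plasminogen activators make the plasmin that digests fibrin. The 9 genes described here cover these steps and were chosen by symbol: the anticoagulant genes *Thbd*, *Procr* and *Tfpi*, the procoagulant genes *F3*, *F8* and *Vwf*, and the fibrinolytic genes *Plat*, *Plau* and *Anxa2*. All 9 have a row in the deposited table, which lists 24346 gene symbols.

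The table holds RNA-seq of sorted lung ECs from adult mice, with 3 libraries of 1 condition named S38, S44 and S52. Cells were freshly isolated from the lungs of wild-type male C57BL/6J mice aged 6 to 8 weeks, which had received an antibody to VE-cadherin in the blood before the organs were taken. After digestion with collagenase and dispase, cells were sorted for CD31 and against CD45 and podoplanin. Neither the labels nor the methods say whether a library came from 1 mouse or several, so the spread between libraries may be technical. The values are FPKM (fragments per kilobase of gene per 1000000 fragments), which are per length, so that levels of different genes can be compared. With 1 condition, no difference between organs, ages or treatments could be tested.

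S52 stood apart from S38 and S44 in what it held besides ECs. The summed level of 6 platelet and megakaryocyte genes was 1755 FPKM (S38), 1385 FPKM (S44) and 42.2 FPKM (S52), and each of the 6 genes was more than 2-fold lower in S52 than in both others. The summed levels of 6 alveolar type 2 genes ranged from 779 FPKM in S52 to 3858 FPKM in S38, and those of 4 airway genes from 401 to 2767 FPKM, again with S52 lowest and S38 highest. The sum over 6 leukocyte and macrophage genes, from 184 FPKM in S52 to 1071 FPKM in S38, was nearly all *Lyz2*, which was at 166 FPKM in S52 and 1047 FPKM in S38. Of the 4 that reached a mean of 1 FPKM, 2 were more than 2-fold lower in S52 than in both others. *Adgre1* and *Marco*, under 1 FPKM in every library, were lowest in S52 too. The sum over 8 endothelial genes lay between 5323 and 5991 FPKM, and fibroblast, mural, mesothelial and hepatocyte lists stayed at or below 115 FPKM in every library. Not all such lists were lower in S52. The median mural gene was higher there, by 0.56 against S38 and 0.93 against S44 on the log2(FPKM + 1) scale, though the mural sum was highest in S38. The sum over 4 alveolar type 1 genes was 348 FPKM (S38), 373 FPKM (S44) and 273 FPKM (S52). Of these, *Ager* and *Rtkn2* were highest in S52 and *Hopx* and *Aqp5* lowest. Of the 4 lymphatic genes, 3 were detected, with *Lyve1* at 539, 597 and 390 FPKM, *Flt4* between 19.8 and 23.8 FPKM and *Pdpn* between 1.84 and 3.09 FPKM, while *Prox1* stayed under 1 FPKM in every library. From the low values, depth was estimated at 36600000 (S38), 37700000 (S44) and 34600000 (S52) fragments.

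The members covered a range of 1970-fold between the highest and the lowest mean. *Thbd* was highest and *Anxa2* and *Vwf* followed, *Plat*, *Tfpi* and *Plau* were at intermediate levels, and *F3*, *Procr* and *F8* were lowest. A mean of at least 1 FPKM, called detected here, was reached by 8 of the 9 members, where 48.3% of all genes in the table reached it, and 6 members reached 10 FPKM, as did 25.7% of all genes. Only *F8* stayed below. The median of the 9 means was 37.97 FPKM, against 0.784 FPKM over all genes of the table and 11.2 FPKM over the 11770 detected ones.

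**Figure D1:**
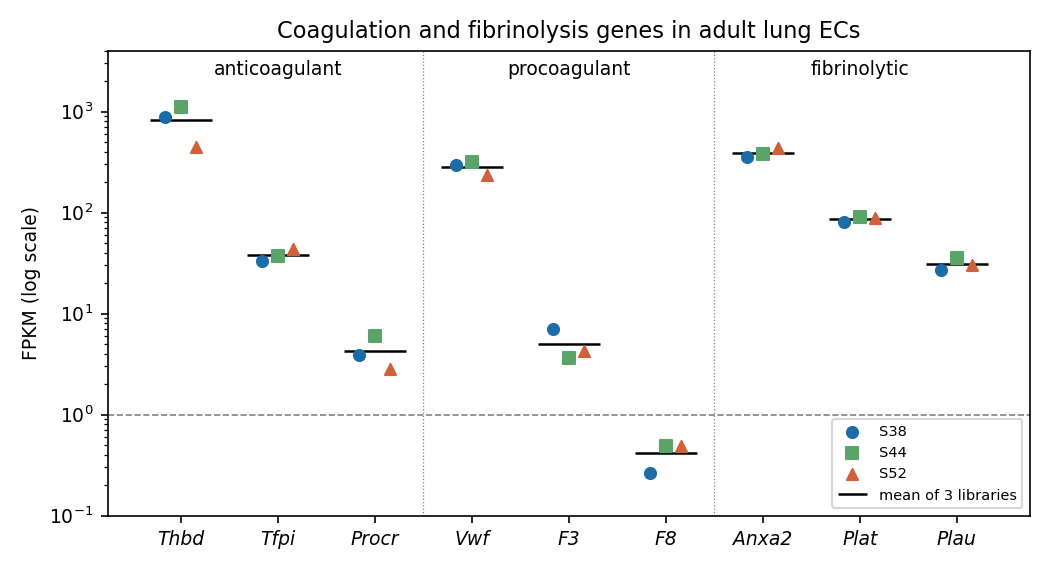
FPKM of each member (log axis) in S38, S44 and S52, with a line at the mean of the 3 libraries and a dashed line at 1 FPKM; dotted lines part the anticoagulant, procoagulant and fibrinolytic genes. *Thbd* sits highest, from 444 to 1121 FPKM, with S52 below the other libraries, and *F8* is the one gene under the dashed line.

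*Thbd* encodes thrombomodulin, the thrombin receptor that redirects thrombin to protein C. It lies on the minus strand of chromosome 2 of GRCm38 (the mm10 build), from 148404466 to 148408188, and its annotated transcript has 1 exon. *Thbd* reached 890 FPKM (S38), 1121 FPKM (S44) and 444 FPKM (S52), with a mean of 818 ± 344 FPKM (SD, n = 3 libraries). S38 was about 2-fold and S44 2.53-fold above S52, and their mean without S52 was 1006 FPKM. Among 19861 protein-coding genes, *Thbd* ranked 51 in S38, 35 in S44 and 171 in S52.

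*Procr* encodes the endothelial protein C receptor, which holds protein C on the membrane for the complex of thrombin and thrombomodulin. It lies on chromosome 2 as well (plus strand, 155751117 to 155755471, 4 exons). *Procr* reached 3.92 FPKM (S38), 5.99 FPKM (S44) and 2.84 FPKM (S52), with a mean of 4.25 ± 1.60 FPKM (SD, n = 3), and 4.96 FPKM without S52. S44 was highest and S52 lowest, the same libraries as for *Thbd*. Although the receptors act on the same substrate, *Procr* stood 190 ± 35.3-fold below *Thbd* (SD of the ratio over the 3 libraries), with ratios of 227 in S38, 187 in S44 and 156 in S52. An estimated 137 to 333 fragments lie behind the values of *Procr*. The exact 95% Poisson intervals, which cover counting error only, were 3.42 to 4.49 FPKM (S38), 5.36 to 6.66 FPKM (S44) and 2.38 to 3.35 FPKM (S52). They do not meet, so the libraries differed by more than counting error at this estimated depth.

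*Tfpi* encodes tissue factor pathway inhibitor, which blocks factor Xa and the complex of tissue factor with factor VIIa. It is the third of the members on chromosome 2 (minus strand, 84432855 to 84476775), and 7 basic transcripts are annotated, whose isoforms a value per gene cannot tell apart. *Tfpi* reached 33.5 FPKM (S38), 36.9 FPKM (S44) and 43.5 FPKM (S52), with a mean of 37.97 ± 5.11 FPKM (SD, n = 3). S52 was highest, the reverse of *Thbd* and *Procr*. Without S52 the mean was 35.2 FPKM.

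RefSeq (GRCm38.p6) promoter windows, from 250 bases before to 50 bases after a start, matched 5 of the 9 members by symbol in 6 windows, which are those of *Procr*, *Tfpi* (with 2 starts), *F3*, *F8* and *Anxa2*. *Thbd*, *Vwf*, *Plat* and *Plau* have no entry. The windows were searched on both strands for TGANTCA (the AP-1 motif, bound by Fos and Jun proteins), GGGCGG (the GC box), CACCC (the CACCC box, bound by Kruppel-like factors) and TATAAA (the TATA box). The stretches outside annotated exons are shown to let the regulatory sequence of the members be compared, with matches to AP-1, GC box and TATA box in capitals. For the anticoagulant genes these are chr2:155750967-155751116 on the plus strand for *Procr* and, for the upstream start of *Tfpi*, chr2:84476776-84477009 on the minus strand.
Procr: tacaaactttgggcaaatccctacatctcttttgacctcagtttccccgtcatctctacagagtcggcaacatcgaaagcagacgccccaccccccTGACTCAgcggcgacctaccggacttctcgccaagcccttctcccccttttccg
Tfpi: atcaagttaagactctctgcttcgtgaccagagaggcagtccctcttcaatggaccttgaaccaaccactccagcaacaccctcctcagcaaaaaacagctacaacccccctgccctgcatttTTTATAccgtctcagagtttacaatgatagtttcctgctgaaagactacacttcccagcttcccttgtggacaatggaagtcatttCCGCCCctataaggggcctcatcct
Distances are counted from the RefSeq start. For *Procr*, the upstream *Tfpi* window and *Anxa2*, it lies downstream of the gene start given above or below, where the shown stretch ends. *Procr* holds 1 AP-1 motif, 154 bases before its RefSeq start, and no GC box or TATA box in the whole window. *Tfpi* holds no AP-1 motif at either start. Each *Tfpi* window has 1 GC box, and the upstream one has TATAAA on the opposite strand 127 bases before the start. A match is a description of letters and no evidence of binding.

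*F3* encodes tissue factor, the membrane protein that starts clotting and is kept out of contact with blood in intact vessels. It lies on chromosome 3 (plus strand, 121723537 to 121735048, 6 exons). *F3* reached 6.96 FPKM (S38), 3.65 FPKM (S44) and 4.24 FPKM (S52), with a mean of 4.95 ± 1.77 FPKM (SD, n = 3), and 5.31 FPKM without S52. S38 was well above the other libraries, which had overlapping 95% Poisson intervals of 3.21 to 4.15 FPKM in S44 and 3.73 to 4.81 FPKM in S52. The sum of alveolar type 2 genes was 3858, 3238 and 779 FPKM across S38, S44 and S52. The mural sum was 115, 60.2 and 111 FPKM, most of it *Acta2* (90.3, 46.7 and 79.7 FPKM). Of the mural genes, *Acta2* and *Myh11* were highest in S38, and *Pdgfrb*, *Cspg4* and *Rgs5* in S52. The part of other lung cells in the *F3* value was not tested. The stretch before the *F3* start, chr3:121723287-121723536 on the plus strand, is shown because it holds a pair of AP-1 motifs within a few bases of each other.
F3: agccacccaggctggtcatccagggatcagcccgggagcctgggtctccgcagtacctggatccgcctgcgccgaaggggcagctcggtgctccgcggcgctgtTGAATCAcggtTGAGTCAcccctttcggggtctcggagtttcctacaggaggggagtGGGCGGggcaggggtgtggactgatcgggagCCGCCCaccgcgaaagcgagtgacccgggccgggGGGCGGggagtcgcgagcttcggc
The AP-1 motifs lie 146 and 135 bases before the start, and 3 GC boxes follow them, 89, 58 and 24 bases before it. The second AP-1 motif overlaps a CACCC box by 2 bases.

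*F8* encodes factor VIII, the cofactor that is missing in haemophilia A and that ECs, mainly those of the liver, release into blood. It lies on chromosome X (minus strand, 75172715 to 75382615, 26 exons). *F8* was the lowest member, with 0.262 FPKM (S38), 0.490 FPKM (S44) and 0.494 FPKM (S52) and a mean of 0.415 ± 0.133 FPKM (SD, n = 3), and 0.376 FPKM without S52. S38 was below both others. The transcript is 9784 bp long, so these low values still rest on an estimated 93, 179 and 164 fragments, and the 95% Poisson interval of S38, 0.211 to 0.321 FPKM, lies below those of S44 (0.421 to 0.567 FPKM) and S52 (0.421 to 0.576 FPKM). *F8* was thus present in each library at a level far above the 3 fragments that a count of 0 allows. Its promoter window holds none of the 4 motifs.

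*Vwf* encodes von Willebrand factor, which tethers platelets to collagen, carries factor VIII in plasma and is stored in the Weibel-Palade bodies of ECs. The gene is on chromosome 6 (plus strand, 125546774 to 125686679, 52 exons). *Vwf* reached 298 FPKM (S38), 314 FPKM (S44) and 235 FPKM (S52), with a mean of 282 ± 41.7 FPKM (SD, n = 3), with 306 FPKM without S52. S52 was the lowest library, at 0.789 of S38 and 0.749 of S44. Megakaryocytes also make von Willebrand factor, and platelet genes moved in the same direction: their summed level in S38 was 41.6 times, and in S44 32.8 times, that of S52. In S52 that sum was 42.2 FPKM and *Vwf* was at 235 FPKM. The part of platelet RNA in the *Vwf* values was not tested. *Vwf* exceeded its cargo *F8* by 1139-fold in S38, 641-fold in S44 and 476-fold in S52.

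*Anxa2* encodes annexin A2, a membrane protein that with S100a10 binds plasminogen and tissue plasminogen activator at the cell surface. It lies on chromosome 9 (plus strand, 69453620 to 69491795, 13 exons). *Anxa2* reached 354 FPKM (S38), 384 FPKM (S44) and 433 FPKM (S52), with a mean of 390 ± 39.8 FPKM (SD, n = 3), and 369 FPKM without S52. S52 was the highest library. The partner *S100a10* was at 389, 381 and 427 FPKM in the same order, so the ratio of *Anxa2* to *S100a10* came to 0.910 (S38), 1.008 (S44) and 1.014 (S52), with a mean of 0.977 ± 0.0586 (SD, n = 3). The genes of the complex thus differed by less than the spread between libraries. *Anxa2* has an antisense gene, *Gm16144*, over 98 of its 3731 exonic bases, and reads there could not be assigned by strand. The *Anxa2* stretch, chr9:69453433-69453619 on the plus strand, is shown for comparison with *F3*, since its AP-1 motif also runs into a CACCC box.
Anxa2: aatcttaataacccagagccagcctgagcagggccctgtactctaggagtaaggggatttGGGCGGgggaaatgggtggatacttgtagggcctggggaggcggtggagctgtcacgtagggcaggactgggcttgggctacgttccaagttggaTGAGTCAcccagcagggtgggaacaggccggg
The AP-1 motif lies 95 bases before the RefSeq start and overlaps the CACCC box by 2 bases, as in *F3*. Across all members with a window, AP-1 was found in 3 of 5 (*Procr*, *F3* and *Anxa2*), GC box in 3, CACCC box in 4 and TATA box in 3. The TATA box matches lie 127 bases before the RefSeq start in *Tfpi*, 17 bases before it in *Anxa2* and 43 bases after it in *F3*. Of 32851 windows of the same length for all genes, 7.81% held AP-1, 35.7% a GC box, 57.5% a CACCC box and 13.6% a TATA box. These shares are per window, while *Tfpi* counts as 1 member with 2 windows.

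**Figure D2:**
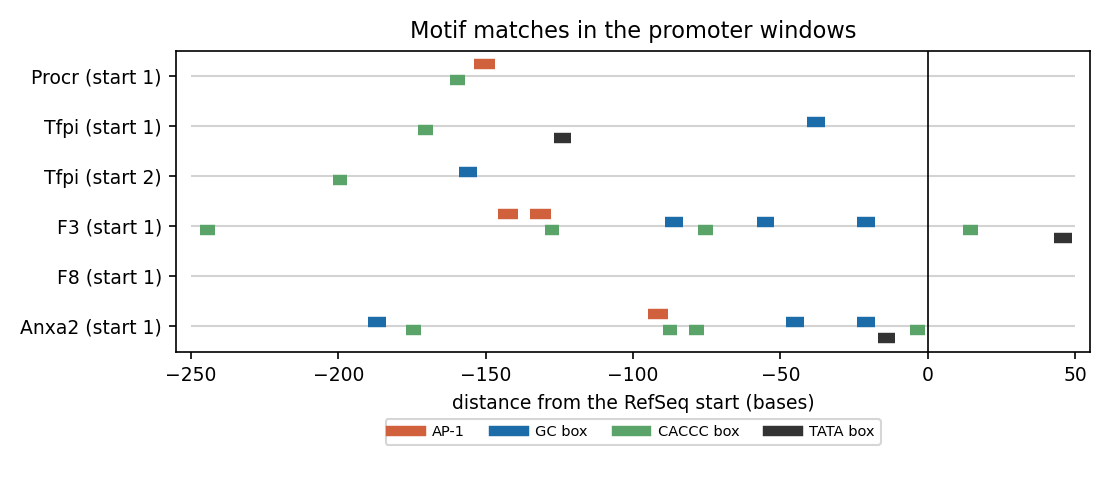
Position of each motif match, in bases from the RefSeq start (vertical line), in the 6 windows of 5 members; bars show matches on either strand, coloured by motif. The AP-1 matches of *Procr*, *F3* and *Anxa2* lie between 154 and 95 bases before the start, and the *F8* line is empty.

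*Plat* encodes tissue plasminogen activator, the enzyme that ECs secrete to start fibrinolysis on a clot. The gene is on chromosome 8 (plus strand, 22757727 to 22782844, 14 exons). *Plat* reached 81.1 FPKM (S38), 90.0 FPKM (S44) and 88.7 FPKM (S52), with a mean of 86.6 ± 4.80 FPKM (SD, n = 3). The highest library was 1.11-fold above the lowest, the smallest such ratio among the members, and smaller than in all but 8.42% of the detected genes. Leaving out S52 gave 85.6 FPKM.

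*Plau* encodes urokinase, the other plasminogen activator, which works on cells through a receptor. The gene is on chromosome 14 (plus strand, 20836660 to 20843385, 11 exons). *Plau* reached 27.2 FPKM (S38), 35.9 FPKM (S44) and 30.5 FPKM (S52), with a mean of 31.2 ± 4.39 FPKM (SD, n = 3), and 31.6 FPKM without S52. Its libraries overlapped with those of *Tfpi* and lay below every library of *Plat*. *Plat* was 2.80 ± 0.255-fold above *Plau* (SD of the ratio, n = 3), at 2.98 in S38, 2.51 in S44 and 2.91 in S52. The urokinase receptor gene *Plaur* was at 223, 287 and 286 FPKM across S38, S44 and S52, which is 8.51 ± 0.736-fold above its ligand *Plau* (SD, n = 3).

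The order of the members was compared within libraries, from *Thbd* through *Anxa2*, *Vwf*, *Plat*, *Tfpi*, *Plau*, *F3* and *Procr* to *F8*. Of the 8 pairs of neighbours in this order, 6 did not overlap. This means that the lowest library of the higher gene was above the highest library of the lower one. The order was taken from the means of these same libraries, so the sorting itself favours the direction of each pair. *Tfpi* was above *Plau* within every library, by 0.28 ± 0.23 on the log2(FPKM + 1) scale (SD, n = 3), but their ranges overlapped, from 33.5 FPKM as the lowest value of *Tfpi* to 35.9 FPKM as the highest of *Plau*. *F3* and *Procr* differed by 0.19 ± 0.68 (SD, n = 3), with *F3* higher in S38 and S52 and *Procr* higher in S44, so they were not separated by these libraries. *Thbd* and *Anxa2* were separate by little, since in S52 they were at 444 and 433 FPKM. With 3 libraries, the exact two-sided sign-flip permutation test cannot go below p = 0.25, which was reached by all pairs of neighbours but *F3* and *Procr* (p = 0.75). After Benjamini-Hochberg adjustment over the 8 pairs these became 0.286 and 0.75 in the exact permutation test, so the order rests on the values and their overlap and not on a test.

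Pairs of opposed or joint roles were compared in the same way. A plain FPKM ratio within a library does not depend on how that library was scaled. The difference of log2(FPKM + 1) does, most for low genes. *Thbd* and *Tfpi* were above the gene that starts clotting, while *Procr* was not separated from it. *Thbd* exceeded *F3* by 128-fold in S38, 307-fold in S44 and 105-fold in S52. *Tfpi*, the direct inhibitor of the tissue factor complex, exceeded *F3* by 4.81-fold in S38, 10.1-fold in S44 and 10.3-fold in S52. S38, the library with the highest *F3*, gave the lowest of these *Tfpi* ratios. Of the 7 pairs, 6 had the same direction in every library, each with p = 0.25 in the exact two-sided permutation test (0.292 after adjustment over the 7 pairs), the smallest that 3 libraries allow. The exception was *Anxa2* with *S100a10* (p = 1 in the same exact permutation test).

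**Figure D3:**
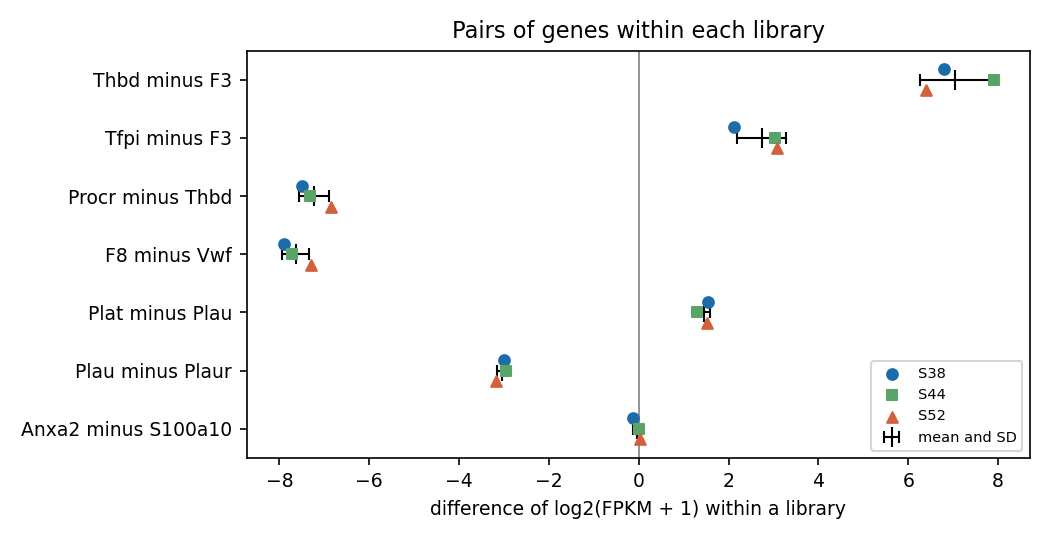
Difference of log2(FPKM + 1) between the genes of each pair in S38, S44 and S52, with the mean and SD of the 3 libraries as a tick and bar; 0 means equal levels. *Thbd* minus *F3* lies above 6 in each library, while *Anxa2* minus *S100a10* lies around 0.

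The spread between libraries was not the same for all members. Among the 8 detected members, *Thbd* (2.53-fold) and *Procr* (2.11-fold) had a highest library more than 2-fold above the lowest, as did 20.1% of all detected genes. *F3* followed at 1.91-fold, and *Vwf*, *Plau*, *Tfpi*, *Anxa2* and *Plat* lay between 1.11-fold and 1.34-fold, under the median of 1.40-fold over detected genes. Without S52 the ratios of *Thbd* and *Procr* fell to 1.26-fold and 1.53-fold, and no detected member exceeded 2-fold. Such a ratio cannot rise when a library is left out, and the share of all detected genes was not computed without S52. *Thbd* was the one detected member more than 2-fold lower in S52 than in both others, as were 8.04% of detected genes, though its ratio of 0.499 to S38 only just passed that limit. In a bulk sample, fewer cells of a type and less RNA per cell cannot be told apart. The summed levels of platelet, alveolar type 2 and airway genes and the level of *Lyz2* were lower in S52 as well, while the median change of the 8 endothelial markers was 0.13 against S38 and -0.05 against S44 on the log2(FPKM + 1) scale. The endothelial genes *Kdr*, the VEGF receptor, at 380, 360 and 237 FPKM, and *Cldn5*, a claudin of EC junctions, at 1486, 1732 and 1029 FPKM across S38, S44 and S52, were also lowest in S52, whereas *Emcn* (156, 181 and 267 FPKM), *Erg* (59.2, 43.1 and 84.8 FPKM) and *Egfl7* (1027, 1127 and 1287 FPKM) of the same list were highest there. The part of these differences in the value of *Thbd* was not tested.

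**Figure D4:**
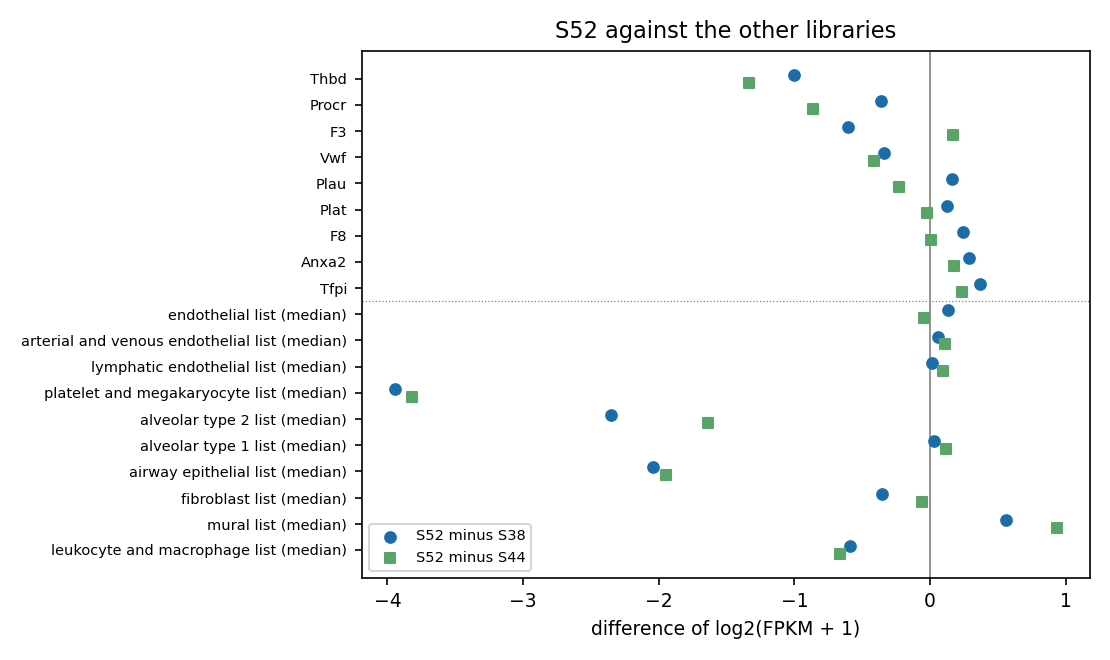
Difference of log2(FPKM + 1) of S52 against S38 (circles) and S44 (squares) for each member and, below the dotted line, as the median of each marker list; 0 means no difference. *Thbd* lies lowest of the members, at -1.34 against S44, while *Tfpi* and *Anxa2* lie above 0, and the platelet list lies at -3.95 and -3.82.

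The rest of the pathway was described through 47 other genes in 6 lists, of which 25 (53.2%) were detected and 8 (17.0%) were listed at 0 in all libraries, near the 48.3% of all genes detected and below the 29.5% of all genes at 0. Of the 14 procoagulant factors, 3 were detected (*F5*, *F10* and *F13a1*), and the fibrinogen genes, prothrombin (*F2*) and *F9*, which the liver makes, stayed below 1 FPKM in every library. *F5*, the cofactor factor V, was at 25.5 FPKM (S38), 16.9 FPKM (S44) and 1.29 FPKM (S52). *F13a1*, the subunit of factor XIII that crosslinks fibrin, was at 15.9, 14.1 and 1.86 FPKM, and *F10*, factor X, at 2.87, 3.07 and 0.163 FPKM. All 3 detected procoagulant factors were thus more than 2-fold lower in S52 than in both others, as were 8.04% of all detected genes. The summed platelet, alveolar type 2 and airway genes and *Lyz2* were lower in S52 as well. The part of such cells in these values was not tested.

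Of the 9 other anticoagulant genes, 3 were detected, beside 48.3% of all genes. *Anxa5*, which encodes annexin A5, a protein that covers exposed phosphatidylserine, was at 170 ± 8.97 FPKM (SD, n = 3). *Pros1*, protein S, the cofactor of activated protein C, was at 72.7 ± 12.1 FPKM (SD, n = 3), and *Tfpi2* was at 2.20 ± 0.574 FPKM (SD, n = 3), well below *Tfpi*. Protein C itself (*Proc*), which circulates from the liver, was listed at 0 in every library. The cofactor and the membrane proteins of the protein C pathway were therefore detected in the sorted fraction, and its enzyme was not. *Pros1* was at 81.0, 78.4 and 58.8 FPKM across S38, S44 and S52. The part of other cells in these values was not tested.

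Thrombin signals to cells through some of the protease-activated receptors. Of the 4 receptor genes of this family, 3 were detected, beside 48.3% of all genes. *F2r*, which encodes PAR1, was at 30.1 FPKM (S38), 28.5 FPKM (S44) and 22.0 FPKM (S52). *F2rl2*, which encodes PAR3, a thrombin receptor of mouse platelets, was at 20.7 FPKM in S38 and 15.1 FPKM in S44 and listed at 0 in S52. *F2rl1* (PAR2) was at 2.07, 0.886 and 0.837 FPKM, and *F2rl3* (PAR4) had a mean of 0.799 FPKM. *F2rl2* was lower in S52, as were platelet, alveolar type 2 and airway genes, whose part in its values was not tested, and *F2r* varied 1.37-fold.

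Among the 8 other fibrinolysis genes, 5 were detected, beside 48.3% of all genes. *S100a10* and *Plaur* led these fibrinolysis genes. *Plgrkt*, a plasminogen receptor, was at 38.7 ± 6.70 FPKM (SD, n = 3) and *Serpine2*, the protease inhibitor nexin-1, at 27.8 FPKM (S38), 21.8 FPKM (S44) and 12.9 FPKM (S52). *Serpinb2*, the inhibitor PAI-2, was at 7.82 and 5.09 FPKM in S38 and S44 and listed at 0 in S52. Plasminogen (*Plg*), the zymogen that *Plat* and *Plau* activate, was listed at 0 in S38 and S52 and was at 0.01 FPKM or less in S44. The activators and the urokinase receptor were therefore detected without their substrate, which the liver supplies.

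Genes that handle factor VIII and von Willebrand factor were detected in 8 of 9 cases, beside 48.3% of all genes. The lists are short, so their counts are given without being read as a result. *Lman1* and *Mcfd2*, the cargo receptor that takes factor VIII out of the endoplasmic reticulum, were at 45.1 ± 5.20 and 63.8 ± 1.27 FPKM (SD, n = 3 for each), far above *F8* itself. *Selp*, P-selectin, which shares the Weibel-Palade body with von Willebrand factor, was at 17.9 ± 1.15 FPKM, and *Rab27a*, which acts in the traffic of these granules, at 12.1 ± 0.323 FPKM (SD, n = 3 for each). *Adamts13*, the protease that trims von Willebrand factor, was at 7.50 ± 0.622 FPKM (SD, n = 3). *Stab2*, a scavenger receptor that clears von Willebrand factor in liver sinusoids, stayed under 1 FPKM in each library. All 3 vitamin K cycle genes were detected, with *Vkorc1* at 38.8, 36.9 and 34.5 FPKM across S38, S44 and S52. Across the 25 detected genes of the lists, 8 varied more than 2-fold between libraries and 5 were more than 2-fold lower in S52 than in both others (*F5*, *F10*, *F13a1*, *F2rl2* and *Serpinb2*), where 20.1% and 8.04% of all detected genes did so.

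**Figure D5:**
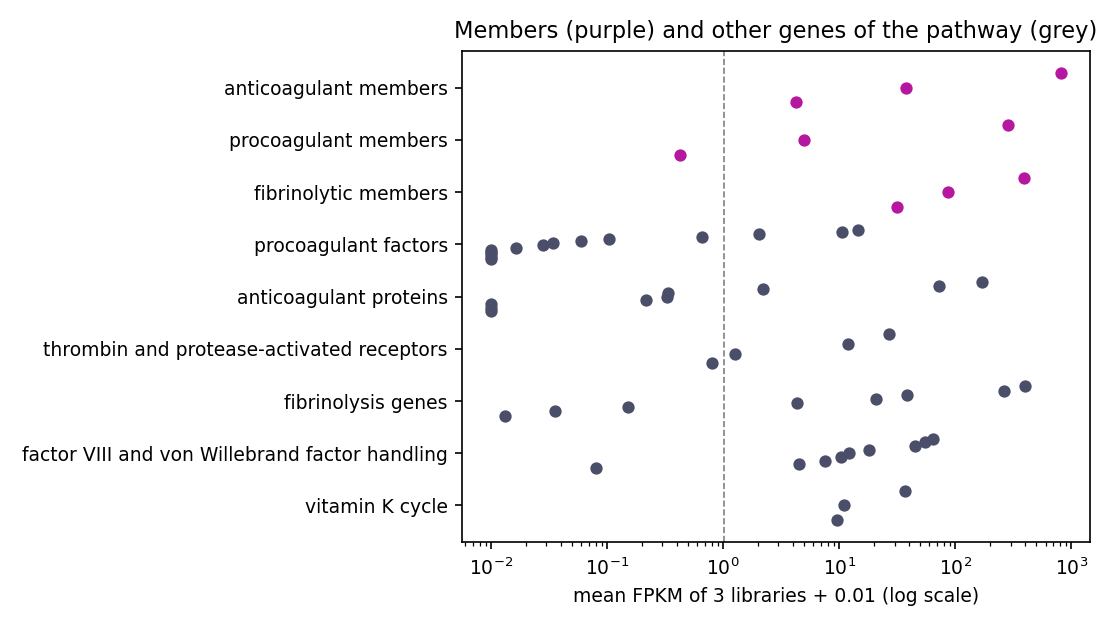
Mean FPKM of the 3 libraries plus 0.01 (log axis) for each member (purple) and each of the 47 other pathway genes (grey), by list, with a dashed line at 1 FPKM; points are spread vertically to be seen. Most procoagulant factors lie left of the line, and the genes of factor VIII and von Willebrand factor handling lie right of it except *Stab2*.

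The gene closest to each member was found by the largest difference of log2(FPKM + 1) over the 3 libraries. No gene lay within 0.1 of *Thbd*, *Procr*, *Vwf* or *Anxa2*. The nearest to *Thbd* was *Igfbp7*, at 992, 1015 and 482 FPKM across S38, S44 and S52, with a largest difference of 0.16. *Vwf* was nearest to *Foxf1*, at 295, 341 and 254 FPKM, with a largest difference of 0.12. *Plat* was within 0.02 of *Ppm1f* in every library, and *Tfpi* was within 0.02 of *Tbkbp1*. For *Tfpi* and *Plat*, 13 genes each lay within 0.1, so a near match at these levels sets no gene apart. With 3 libraries of 1 condition, such likeness describes level more than pattern.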

How the data were processed

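The authors deposited 1 FPKM value for each gene and library, on the mm10 genome, from poly-A selected RNA without strand information and paired reads of 51 bp. The submitters' processing notes name TopHat2 2.1.0 and Cufflinks 2.2.1 among their tools, with no role given. The values were used as deposited, without a count model. Differences were taken on log2(FPKM + 1), where the pseudocount of 1 understates changes of low genes, and tested by exact two-sided sign-flip permutation over libraries. Depth was estimated, after the values were seen, from the step that makes low values of 7077 genes with 1 transcript whole fragments. Within 0.15 of a whole number were 81.0%, 81.0% and 77.2% of low values in S38, S44 and S52. The search was tested on simulated data. Positions come from GENCODE M21, and no window of 51 bases in a member's longest transcript occurs in another gene's transcripts. The members and lists were chosen with earlier results of these data known. 1 gene of the lists and the pair that held it are not reported here. Named genes are the members, the detected genes of the lists, markers beside a result and nearest genes. *Stab2*, *Proc*, *Plg*, *F2*, *F9* and *F2rl3* were named after their values were seen. Python 3.11.15, numpy 2.4.6 and pandas 2.3.3 were used.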

Additional observations from a re-analysis of the deposited data

How the results depend on the processing

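No paired analysis was possible because all libraries belong to 1 condition. The number of members detected was 8 under every alternative, namely 2 planned rescalings, leaving out each library, and a rescaling over protein-coding genes chosen after seeing the data. The number of detected members over 2-fold between libraries ranged from 0 without S52 to 2 without S38, with 1 without S44. Leaving out a library cannot raise these ratios, and the share of all detected genes was not computed for these settings. The cause was not tested. The number of neighbour pairs that did not overlap ranged from 6 to 8 when a library was left out, and that of pathway genes detected from 24 to 26. With 3 libraries it was 31 at 0.1 FPKM, 18 at 10 FPKM and 21 with 1 FPKM required in every library. Differences near 0 changed sign when a library was left out: *F3* minus *Procr* ranged from -0.068 to 0.57 and *Anxa2* minus *S100a10* from -0.063 to 0.016 on the log2(FPKM + 1) scale. Rescaling each library to a sum of 1000000 brought *Procr* to 1.87-fold and *F3* to 2.65-fold between libraries. Over protein-coding genes it raised every level by 2.20 to 2.27 times. Depth limits *F8* most, with an estimated 93 fragments in S38.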
